A study of Mus musculus with 2 samples.

Results

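The core circadian clock was followed through 10 genes, Arntl, Clock, Per1, Per2, Per3, Cry1, Cry2, Nr1d1, Nr1d2 and Dbp, chosen by their gene symbols as the textbook loop of activators, repressors and output. All 10 were found, each with 1 probe set, among 19936 named nuclear genes on the arrays. Gene expression had been measured in gastrocnemius, a calf muscle, on 2 Affymetrix Mouse Gene 1.0 ST arrays, 1 for control and 1 for PGC-1β(i)skm-/- mice, with RNA of 3 mice pooled on each. Both pools were from male C57BL/6 mice of 8 weeks that carried floxed PGC-1β L2 alleles, with LoxP sites around exon 5, and that had been given 1 mg tamoxifen daily for 5 days from 7 weeks, the last dose 1 week earlier. The mutants also carried the HSA-Cre-ERT2 transgene, a tamoxifen-dependent recombinase under the human skeletal actin promoter and hence active in myofibres, which the controls lacked. The labels call the control genotype wild-type. The effect of the transgene cannot be told apart from that of the deletion. Other cells of the muscle keep PGC-1β.

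The clock of mammalian cells is a transcriptional feedback loop. The positive limb consists of BMAL1, the product of Arntl, and CLOCK, which bind together to E-boxes and activate the Per, Cry and Nr1d genes. PER and CRY proteins then repress this activity, whereas the nuclear receptors REV-ERBα and REV-ERBβ, encoded by Nr1d1 and Nr1d2, repress Arntl and Clock through ROR elements, so that transcripts of the Nr1d genes and Dbp peak at about the opposite time of day to that of Arntl. In skeletal muscle this loop times genes of fuel use. Pools taken at different phases would therefore be expected to differ in opposite directions in Arntl and in the Nr1d genes and Dbp. Other genes of the limbs need not follow, so that a contrast of whole limbs is only a rough gauge of phase.

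The letters of some elements of this loop occur in the sequences in front of the genes. Whether these sites are bound or used was not tested. RefSeq promoter windows of GRCm38.p6, from 250 bases before to 50 bases after a transcript start, were found for 9 of the 10 genes, all but Per2, in 13 windows. Both strands were searched for the E-box CACGTG, for its variant CACGTT, which was added later, for the D-box TTATGNAA, the site of DBP and its relatives, and for the ROR element TAGGTCA. No motif overlapped another. Of all 32851 windows, 7.15% hold the E-box, 4.68% the variant, 3.38% the D-box and 2.61% the ROR element. The stretches below are shown because they hold such motifs in a gene of each kind, in capitals, and each is written 5′ to 3′ on the strand of its gene.

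Per1 (chr11:69098699-69098948, plus strand, with an E-box that begins 166 and a D-box that begins 24 bases before the start): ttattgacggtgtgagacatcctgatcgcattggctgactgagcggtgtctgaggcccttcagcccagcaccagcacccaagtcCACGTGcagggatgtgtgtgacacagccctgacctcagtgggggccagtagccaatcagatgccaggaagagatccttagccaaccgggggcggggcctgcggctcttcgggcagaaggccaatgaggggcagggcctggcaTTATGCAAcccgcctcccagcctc
Per3 (chr4:151044666-151044915, minus strand, with D-boxes 205 and 158 bases before the start): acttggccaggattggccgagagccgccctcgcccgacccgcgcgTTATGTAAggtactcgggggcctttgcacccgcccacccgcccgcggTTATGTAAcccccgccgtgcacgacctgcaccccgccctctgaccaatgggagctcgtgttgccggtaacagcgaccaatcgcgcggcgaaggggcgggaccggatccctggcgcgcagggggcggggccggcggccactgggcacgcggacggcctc
Cry1 (chr10:85185055-85185304, minus strand, with an E-box 60 bases before the start and the variant, read on the opposite strand, at 79): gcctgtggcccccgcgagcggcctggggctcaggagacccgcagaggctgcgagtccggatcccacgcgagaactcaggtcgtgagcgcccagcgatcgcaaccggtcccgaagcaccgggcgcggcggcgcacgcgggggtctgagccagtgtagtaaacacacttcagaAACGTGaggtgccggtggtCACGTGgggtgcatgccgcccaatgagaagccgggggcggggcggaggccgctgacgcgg
Nr1d1 (chr11:98775378-98775627, minus strand, with the variant, read on the opposite strand, 28 bases before the start): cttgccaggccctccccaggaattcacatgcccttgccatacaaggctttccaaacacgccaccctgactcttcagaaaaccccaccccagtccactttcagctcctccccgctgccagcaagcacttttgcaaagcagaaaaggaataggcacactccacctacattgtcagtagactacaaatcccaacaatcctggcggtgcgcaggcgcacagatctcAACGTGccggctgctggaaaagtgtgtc
Arntl (chr7:113207531-113207557, plus strand, with a ROR element 30 bases after the second of the listed starts): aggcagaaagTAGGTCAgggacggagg

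An E-box was found for 2 of the 9 genes, Per1 and Cry1, and a D-box for 2, Per1 and Per3. The variant was found for 3, Cry1, Cry2 and Nr1d1, and the ROR element for Arntl alone. These are counts of genes, some with several windows, whereas the shares above are of single windows. The windows of Clock, Nr1d2 and Dbp held none of these letters, which says nothing of sites farther away. Per1 is a gene with both an E-box and a D-box in a single window, and Per3 has a pair of D-boxes and no E-box there.

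**Figure D1:**
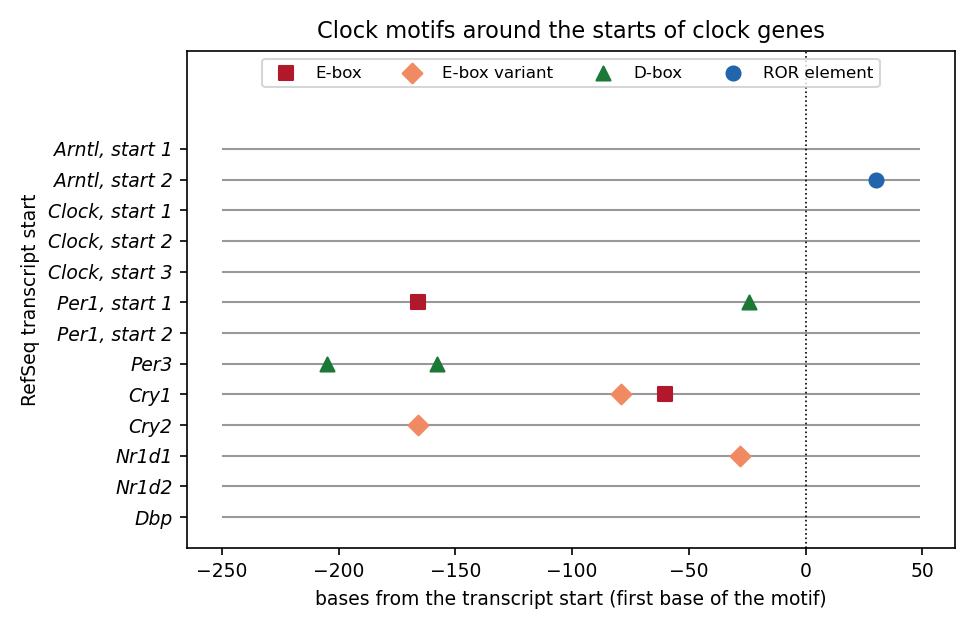
Each line is the window around 1 RefSeq transcript start of a core clock gene, from 250 bases before to 50 bases after it (horizontal axis, in bases), and each symbol marks the first base of a motif. Motifs lie in 6 of the 13 windows, and Per1, Per3 and Cry1 hold 2 each.

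On the arrays, no clock gene among the 10 differed by more than 7.20% between the pools, and none reached the ratios of mutant to control signal of 0.8 or 1.2 with which the study marks lower and higher genes. Signals of Arntl, Per3, Cry1 and Clock were slightly lower and those of Nr1d1, Per1, Per2, Dbp, Nr1d2 and Cry2 slightly higher in PGC-1β(i)skm-/- muscle, although Clock turned to 0.013 on the log2 scale with a curve on the signal subtracted. Ratios ran from 0.956 for Arntl to 1.07 for Nr1d1. The lower ratio was reached by 0.652% of all named nuclear genes and the higher by 1.64%, so that 0 of 10 members is close to what these shares give for 10 genes. At a ratio of 1/1.2 or less, which 1.69% of genes had, no member was found either. With 1 array per genotype, differences have no error between mice and no test was made.

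For the pools as a whole, the median log2 signals over 35556 probe sets were 6.00 (control) and 6.02 (mutant). Signals are given on the log2 scale of RMA, where a difference of 1 is a factor of 2, and they do not rank genes by abundance, since each probe set responds differently. Ppargc1b, the targeted gene, had log2 signals of 7.87 (control) and 7.06 (mutant), a ratio of 0.569, from a probe set that is not limited to the deleted exon. Of 10 markers of skeletal muscle, 9 had a log2 difference between 0 and 0.04, with Ckm, the muscle creatine kinase, at 0.04 and Myh1, a fast myosin, at −0.16. Acta1, the skeletal actin, had log2 signals of 13.88 and 13.91.

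For the positive limb, Arntl had log2 signals of 6.75 (control) and 6.69 (mutant). The difference of −0.07, a change of −4.41%, was matched or exceeded in size by 51.6% of all genes. Clock had 9.18 and 9.17, a difference of −0.0072, the smallest of the 10 genes, and it turned to 0.013 when a curve of the difference on the signal was subtracted. Arntl thus had the lower signal in the mutant pool by a small amount, while the pools were nearly level for its partner. The paralogue of Arntl, Arntl2, had 6.09 and 6.01, a difference of −0.08 in the same direction, at a dim signal.

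For the negative limb, the Per genes, which encode the rhythmic repressors, had no common direction. Per1 had log2 signals of 9.09 (control) and 9.18 (mutant), 6.84% more. Per2 had 8.09 and 8.15, 4.74% more. Per3, whose window holds D-boxes and no E-box, had 8.16 and 8.13, a change of −2.40%. The difference was 0.10 for Per1, and 36.1% of all genes had one as large in either direction.

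The cryptochromes, the partners of the PER proteins in repression, were split as well. Cry1, whose transcript is known to peak later than those of the Per genes, had log2 signals of 6.98 and 6.95, a change of −2.17% in the mutant pool. Cry2, known for a weaker rhythm, had 8.39 and 8.43, 2.80% more. Both differences were small beside those of other genes, with 74.6% and 68.7% of all genes differing at least as much in size.

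The REV-ERB genes both had the higher signal in PGC-1β(i)skm-/- muscle. Nr1d1 had log2 signals of 11.54 (control) and 11.64 (mutant), a difference of 0.10 and the largest of the 10 genes, 7.20% more. Nr1d2 had 10.69 and 10.74, 3.32% more. In genes with a mean signal within 0.5 of that of Nr1d1, 22.5% of 338 genes had a difference of that size or more. Thra, which was looked up because it overlaps Nr1d1 at its end on the opposite strand, had 9.89 and 9.83, a difference of −0.06.

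Dbp, a transcription factor driven by E-boxes that carries the rhythm to D-box genes, had log2 signals of 10.30 and 10.36, 4.05% more in the mutant pool. Its relatives of the PAR bZIP family, Tef and Hlf, also had the higher signal there. Tef had 9.67 and 9.70, a difference of 0.03, and Hlf had 7.88 and 7.94, a difference of 0.06. All 3 members of the family thus lay above 0, as 49.6% of all genes did.

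**Figure D2:**
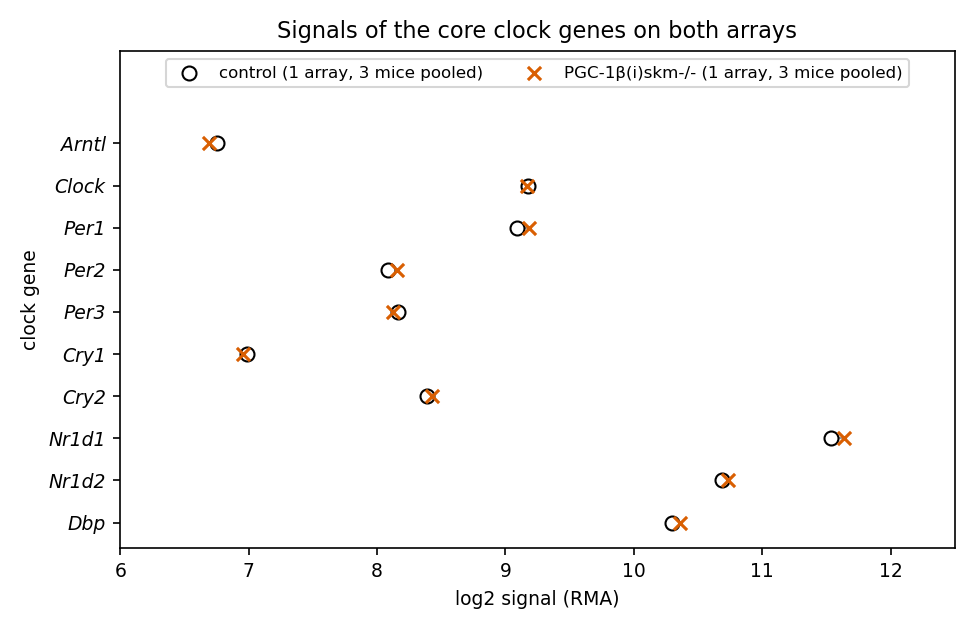
Log2 signals (horizontal axis) of the 10 core clock genes (vertical axis) are shown for control (open circles) and PGC-1β(i)skm-/- muscle (crosses), 1 array each, with no error available. Crosses lie right of circles for 6 genes and left for 4, and the widest gap is that of Nr1d1, 0.10; positions do not rank genes by abundance.

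As a rough gauge of whether the pools may have been at different phases, the limbs were set against each other. The median log2 difference was −0.04 over Arntl and Clock and 0.05 over the 7 repressor genes Per1, Per2, Per3, Cry1, Cry2, Nr1d1 and Nr1d2, so that the positive limb lay lower by −0.08, a factor of 0.944. Taken in pairs, Arntl had a lower difference than each of the 7 repressor genes, and Clock than 5 of 7. Of all genes, only 25.7% had a lower difference than Arntl and 47.3% a lower one than Clock, so most genes would give such pairs. Pairs share genes and are not independent. The widest of these gaps, between Arntl and Nr1d1, was 0.17 on the log2 scale, so that the signal ratio of Nr1d1 to Arntl was 1.12 times higher in the mutant than in the control pool. For Per1 and Arntl this shift was 1.12 times as well, for Nr1d2 1.08 times and for Dbp 1.09 times, but for Per3 and Cry1 only 1.02 times. Against Clock, the shift was 0.981 for Per3 and 0.983 for Cry1.

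The limbs thus lay on opposite sides of 0 by their medians, by small amounts and with exceptions. Per3 and Cry1 were lower together with Arntl. When genes were grouped by the element that drives them, the median was −0.0072 over 3 genes of ROR elements, Arntl, Clock and Nfil3, and 0.06 over 10 genes of E-boxes and D-boxes, a difference of −0.06. The first of these medians is that of Clock and turned to 0.013 with the curve on the signal subtracted. Nfil3, a repressor of D-box genes whose rhythm is known to run with that of Arntl, went the other way than Arntl, with log2 signals of 8.22 and 8.30, a difference of 0.08. The E-box and D-box genes of that list are Per1, Per2, Per3, Nr1d1, Nr1d2, Dbp, Tef, Hlf, Ciart and Bhlhe41, of which 9 lay above 0 and Per3 below it. The Cry genes are not in the list, and Cry1, whose window holds an E-box, lay below 0 at −0.03. Of all genes, 49.6% lay above 0.

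Whether this pattern came from the hour of collection was not tested. The mice were kept in cycles of 12 h light and 12 h dark, and the sources used here do not give the hour at which the muscles were taken. Genotype and hour of collection cannot be told apart with 1 pool of each. No time course is part of the series, so that the differences cannot be turned into hours.

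**Figure D3:**
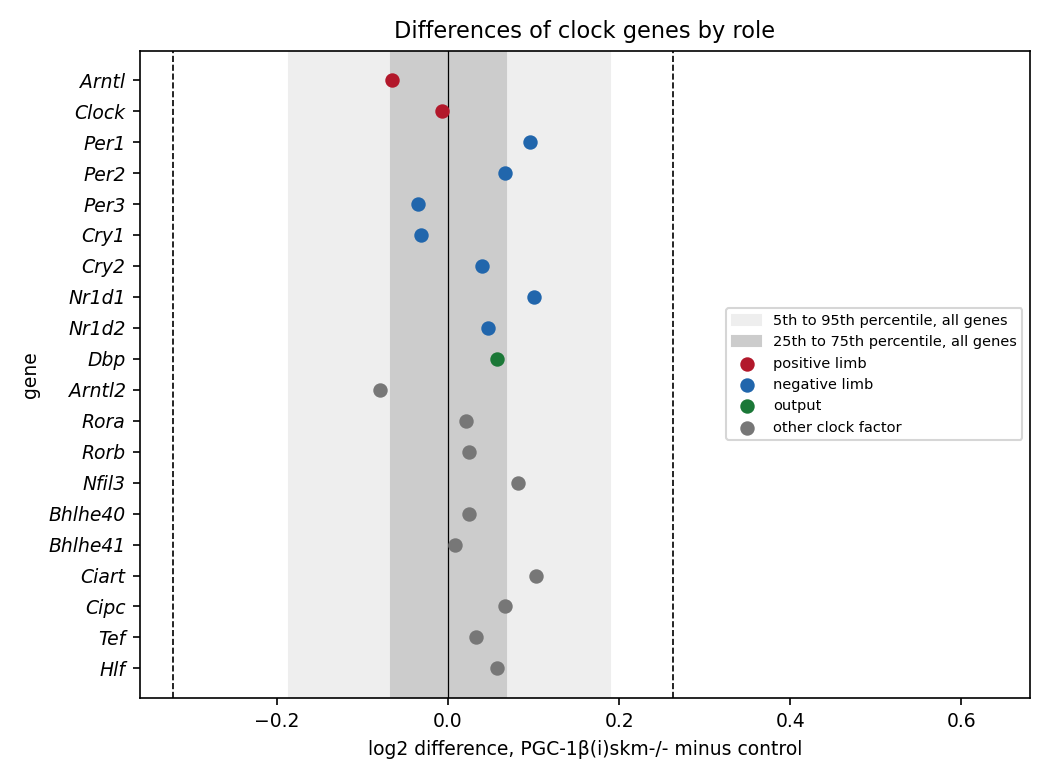
Log2 differences of mutant from control signal (horizontal axis) of the 10 core clock genes and of 10 further clock transcription factors (vertical axis) are coloured by role, over grey bands between the percentiles of all named nuclear genes given in the legend, with dashed lines at ratios of 0.8 and 1.2. All points lie between −0.08 and 0.10, and Arntl and Clock (which turned to 0.013 with a curve on the signal subtracted) lie left of 0 while 5 of the 7 repressor genes lie right of it.

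The size of these differences can be read against the rest of the arrays. Over all 19936 genes the standard deviation of the log2 difference was 0.12, and the median of its absolute size was 0.07. Over the 10 clock genes the median absolute size was 0.05, and 33.8% of all genes differed by more than any of them. All 10 had a mean signal of at least 6.72, above the median of 6.46 over all genes, and among the 9083 genes that bright the median absolute size was 0.06. A gauge of measurement error is the gap between the differences of the 2 brightest probe sets of the same gene. Its median was 0.04 over 543 genes of at least that signal, and 22.1% of these gaps exceeded 0.1. The differences of Clock, Per3 and Cry1 were below this median and that of Cry2 was level with it at 0.04, whereas those of the other 6 clock genes were above it. The 75th percentile of the gaps was 0.092, and of the clock genes only Per1 (0.095) and Nr1d1 (0.10) differed by more. The gap covers neither mice nor pools, nor any error that both probe sets of a gene share.

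**Figure D4:**
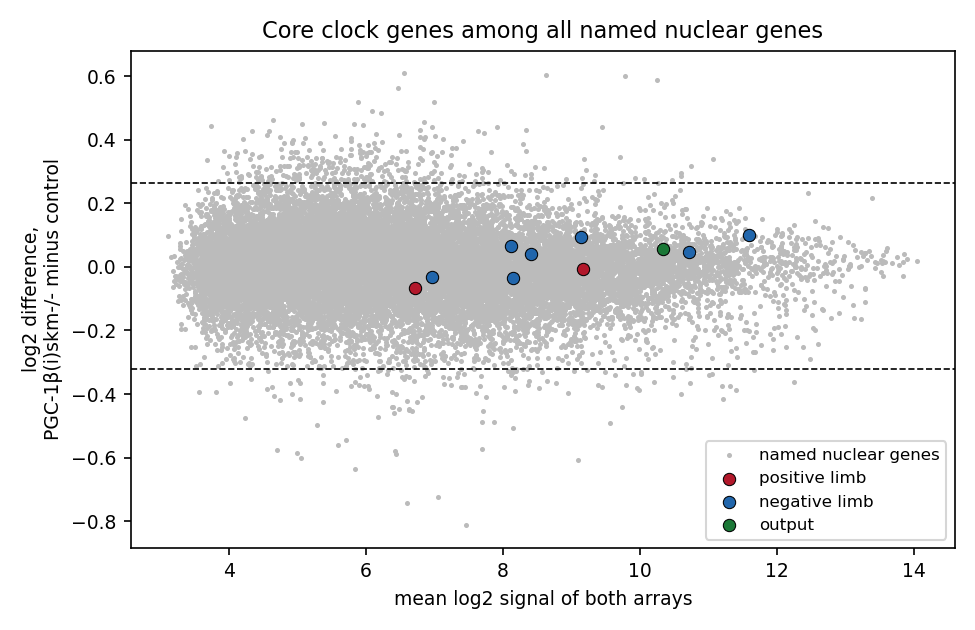
Grey points are all named nuclear genes, plotted by mean log2 signal (horizontal axis) against the log2 difference of mutant from control (vertical axis), with core clock genes coloured by limb and dashed lines at ratios of 0.8 and 1.2. The clock genes lie within the cloud, between −0.07 and 0.10.

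Among 12 further transcription factors of the clock, 10 were measured and none reached either ratio, with 9 above 0 and a median of 0.03. Tef, Hlf, Nfil3, Ciart and Bhlhe41 were already counted in the groups above, so that these counts are not separate from those. Above 0 lay 49.6% of all genes, and 0.652% and 1.64% reached the lower and the higher ratio. Npas2, the paralogue of Clock, was not analysed here. Ciart, encoding a repressor of BMAL1 and CLOCK that is itself driven by E-boxes, had the largest difference of this group. Its log2 signals were 9.57 and 9.67, a difference of 0.10, and its other probe set was at 0.15. Cipc, an inhibitor of CLOCK, had 8.87 and 8.94, a difference of 0.07.

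The E-box repressors Bhlhe40 and Bhlhe41 were nearly level, at 0.02 and 0.0077. Rora and Rorb, which encode activators at ROR elements, were both at 0.02, the latter at dim log2 signals of 5.15 and 5.17. Ppargc1a encodes PGC-1α, known as a coactivator of ROR proteins at the Arntl gene. It had log2 signals of 10.18 and 10.29, a difference of 0.11, and its other probe set was at 0.14. The first of these differences was matched or exceeded in size by 30.7% of all genes. By RT-qPCR, the paper reports no compensatory rise of this transcript in mutant muscles. Any bearing of Ppargc1a on the signal of Arntl was not tested.

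Genes that set the stability of clock proteins were spread on both sides of 0. Of 16 measured kinases and ubiquitin ligases, 10 lay below 0, none reached either ratio and the median was −0.02. Over all genes, 50.2% lay below 0, and 0.652% and 1.64% reached the lower and the higher ratio. The casein kinases Csnk1d and Csnk1e, which phosphorylate PER proteins, were both at −0.04. Siah2, a ubiquitin ligase for REV-ERB proteins, was at 0.19, and Usp7, a deubiquitinase, at −0.09. Of 12 measured cofactors, 6 lay above and 6 below 0, with a median of 0.0049, and the largest differences were those of Wdr5, of histone methyltransferase complexes, at −0.13 and of Timeless at −0.12.

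Clock-controlled genes of muscle had a median of −0.03, or −0.01 with a curve on the signal subtracted. Of 12 such genes, 9 lay below 0, among them Pdk4 and Fbxo32 at −0.0001 and −0.0018, and none reached either ratio. Myod1, the myogenic factor known as a target of CLOCK and BMAL1, was at 0.12, and Nampt, the enzyme of NAD+ salvage, was at −0.12. Tcap, a sarcomere protein gene and target of the clock in muscle, was at −0.06, and Pdk4, the pyruvate dehydrogenase kinase, had signals of 13.20 on both arrays. Over all genes the median was −0.0006, 50.2% lay below 0, and 0.652% and 1.64% reached the lower and the higher ratio.

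Per1 is also known to respond to glucocorticoids and to CREB. Of 9 measured genes of the glucocorticoid response, Per1 included, 6 lay above 0, with a median of 0.02. Fkbp5, a standard marker of this response, was at 0.07, Mt1 at 0.13 and Mt2 at 0.11. Tsc22d3 was at 0.02 and Klf9 at 0.01, whereas Zbtb16 was at −0.02 and Sgk1 at −0.04. Ddit4 had a ratio of 0.796, with log2 signals of 9.20 and 8.87, a ratio that came out above 0.8 with a curve on the signal subtracted. Of 8 genes of CREB and acute induction, Per1 included, 6 lay above 0, with a median of 0.08, and Dusp1, a phosphatase induced within minutes of stress, had a ratio of 1.22. Crem and Sik1 were below 0, at −0.09 and −0.04. Over all genes, 49.6% lay above 0, 1.64% had a ratio of 1.2 or more and 0.652% one of 0.8 or less. The part of these inputs in the signal of Per1 was not tested.

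All cells of the muscle have a clock, and markers of some of them differed between the pools. All 10 markers of connective tissue cells lay above 0, with a median of 0.20, and Fmod, Tnmd and Thbs4 had a ratio of 1.2 or more. The smallest differences of these markers were those of Pdgfra, 0.05, and Postn, 0.08. Their summed linear signal was 13140 in control and 14965 in mutant muscle. All 10 macrophage markers lay above 0 as well, with a median of 0.26, and Csf1r, C1qa, C1qb, C1qc and Mrc1 had a ratio of 1.2 or more. Their summed signal was 1630 and 1942. Among all named nuclear genes, the share above 0 was 49.6%, and 1.64% reached the higher ratio.

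Of 10 endothelial markers, 8 lay above 0, with a median of 0.05 and the largest differences at Cdh5 (0.16) and Tek (0.14), while Emcn was at −0.13. Of 7 measured adipocyte markers, 5 lay above 0, with a median of 0.07. Retn was at 0.23 and Lep at 0.21, the latter at dim log2 signals of 5.61 and 5.82. Adipoq and Cidec were below 0, at −0.07 and −0.05. All 5 measured markers of Schwann cells lay below 0, with a median of −0.11, and Mbp, the myelin basic protein, had a ratio of 0.791. Over all genes, 49.6% lay above 0, 50.2% below it, and 0.652% had a ratio of 0.8 or less. The signals cannot show whether there were more or fewer cells of a type or more or less RNA in each, and no marker can be called absent, since arrays have a background signal. Macrophage and connective tissue markers thus lay on the same side of 0 as Per1, Nr1d1 and Dbp, with medians above these genes' differences and single markers such as Pdgfra (0.05) and Cd68 (0.06) below those of Per1 and Nr1d1, and their part in the clock genes' differences was not tested.

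**Figure D5:**
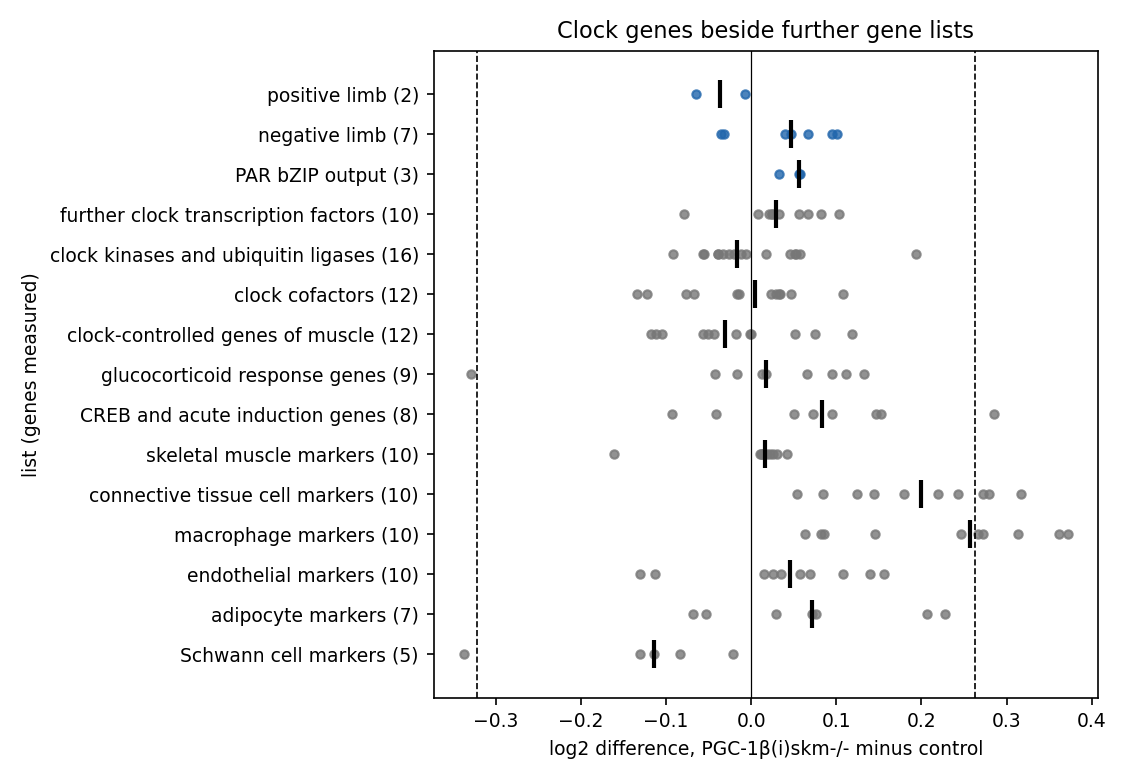
Points give, for single genes, the log2 difference of mutant from control (horizontal axis) in the lists named on the vertical axis with their numbers of measured genes, the groups of core clock genes in blue, black bars being medians and dashed lines ratios of 0.8 and 1.2. Medians of the clock groups lie between −0.04 and 0.06, and that of macrophage markers at 0.26.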

How the data were processed

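The 2 samples were arrays of pooled RNA, 1 per genotype, grouped by the labels. The authors read Affymetrix Mouse Gene 1.0 ST arrays with Command Console 3.2 and computed the deposited log2 signals per probe set by RMA in Expression Console 1.1, that is with background correction, quantile normalization and median polish, so that a shift common to all genes would not be seen and differences of dim probe sets are compressed. The genome build behind them is unstated in the sources used. From these values the log2 difference, mutant minus control, was computed per gene. Of 35556 probe sets, 21789 had 1 gene symbol in the platform annotation, 1621 had several and 12146 were unnamed here. For 21698 of them, Entrez IDs gave the current symbol in RefSeq (GRCm38.p6). Where a gene had several, as 997 did, the brightest on average stood for it. Thresholds were the study's ratios of 0.8 and 1.2.

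The clock genes and the gene lists were chosen with earlier results of these data known. Genes named one by one are the clock genes, Ppargc1b and Ppargc1a, the further clock factors and PAR bZIP genes, and of every other list the genes past a ratio or else the 2 of largest difference. Acta1, Fkbp5, Tcap, Pdk4, Fbxo32, Csnk1d, Csnk1e, Emcn, Pdgfra, Postn, Cd68, Adipoq, Cidec, Crem, Sik1 and Thra were added after their values were seen. So were Mt1, Mt2, Tsc22d3, Klf9, Zbtb16 and Sgk1. No test was possible with 1 array per genotype, and the number of arrays limits the precision. Alternatives were averaging over a gene's probe sets, probe sets of several genes, a loess curve (span 0.3) or the median subtracted, a filter at a mean log2 signal of 6, a ratio of 1/1.2 and other makeups of the limbs. The calculation was run on simulated data with planted shifts larger than any clock gene difference seen here. This checks the code and not the reading of differences as small as these. Python 3.11.15 with pandas 2.3.3, numpy 2.4.6, statsmodels 0.14.6 and matplotlib 3.10.9 was used.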

Additional observations from a re-analysis of the deposited data

How the results depend on the processing

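The positive limb lay lower by −0.09 to −0.08 on the log2 scale in the 4 alternatives that could move this contrast: a loess curve subtracted, means, Dbp added and Cry1 left out. The other 4 could not, since each gene has a single probe set above the filter and the median cancels. The difference between ROR-element genes and E-box and D-box genes ran from −0.09 to −0.05. Leaving out Nfil3 gave −0.09 for the latter, and the other probe set of Ciart left it at −0.06; both were chosen after seeing the data. No clock gene reached a ratio of 0.8, 1/1.2 or 1.2 in any alternative, and of 40 recomputed differences of single clock genes none moved by more than 0.02. Subtraction of the loess curve of the difference on signal turned Clock from −0.0072 to 0.013, and with it the median of the ROR-element genes to 0.013, and moved Ddit4 to a ratio above 0.8, leaving 0 glucocorticoid response genes at 0.8 or less. These shifts follow from the curve itself. The curve also moved the medians of clock-controlled genes to −0.01, of kinases and ligases to −0.0075, of cofactors to 0.02, of further clock factors to 0.04 and of glucocorticoid response genes to 0.03. The filter on signal moved the cofactors to 0.02, and probe sets of several genes the endothelial markers to 0.03. As replicates are lacking, no spread is at hand against which to read such moves. No paired analysis was possible because each genotype has a single array, and no sample could be left out.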
